A study of Rattus norvegicus with 19 samples.

Results

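The left ventricles of 19 male Dahl salt-sensitive rats (Harlan SS/Hsd) were compared for 10 genes that make or remove reactive oxygen: the antioxidant enzymes Sod1, Sod2, Cat, Gpx1, Gpx3, Hmox1 and Nqo1, and the NADPH oxidase subunits Cyba, Cybb and Nox4. The members were all probe sets annotated to these symbols, 12 of the 20826 probe sets that named 1 gene, and they stood for 10 of the 14217 genes measured. Cyba and Cybb had 2 probe sets each and the others 1. A diet with 6% NaCl was given to every rat from the age of 6 weeks, so no group was free of high salt. The baseline group (n = 4) was untreated and taken at 11 weeks of age, after 5 weeks of the diet. The remaining groups stayed on the diet and were taken at 15 weeks, after 4 weeks of treatment. The vehicle group (n = 4) was injected with the solvent. The paricalcitol group (n = 4) received 200 ng of this activator of the vitamin D receptor by intraperitoneal injection, 3 times a week. The enalapril group (n = 3) received this inhibitor of angiotensin-converting enzyme by osmotic pump at 90 ug a day, with vehicle injections. The combination group (n = 4) received both drugs. According to the series design, this was the highest enalapril dose without a significant fall in blood pressure. Any contrast of a treated or vehicle group with baseline also holds 4 weeks of age, diet and injections, which cannot be told apart.

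Superoxide is formed when an oxidase or the respiratory chain passes an electron to oxygen. Superoxide dismutases turn it into hydrogen peroxide, which catalase and the glutathione peroxidases remove. NADPH oxidases are membrane enzymes whose main task is to make superoxide or hydrogen peroxide, and in the heart they are found in cardiomyocytes, vessel cells, fibroblasts and infiltrating phagocytes. Genes such as Hmox1 and Nqo1 are induced under oxidative stress by the transcription factor Nrf2 through antioxidant response elements in their regulatory DNA.

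Promoter windows from RefSeq (GRCr8, 250 bases before to 50 after the annotated start) were on hand for 9 of the 10 genes, all but Hmox1. Those of Cybb and Gpx3 are shown because these genes varied together across rats of the same group, as described below, and that of Sod2 because it alone of the 9 held the core of the antioxidant response element. Sequences run 5′ to 3′ on the strand of the gene. Capitals mark that core (TGACNNNGC) or the PU box (GAGGAA), the letters bound by myeloid ETS factors, on either strand.
Sod2, chr1:50050119-50050418, minus strand: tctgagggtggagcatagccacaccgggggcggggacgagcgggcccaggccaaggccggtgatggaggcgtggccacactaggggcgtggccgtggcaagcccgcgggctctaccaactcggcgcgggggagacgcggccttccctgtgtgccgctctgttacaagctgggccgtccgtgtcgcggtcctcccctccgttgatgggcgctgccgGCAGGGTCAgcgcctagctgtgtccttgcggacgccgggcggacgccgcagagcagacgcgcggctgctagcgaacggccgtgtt
Gpx3, chr10:39529085-39529384, plus strand: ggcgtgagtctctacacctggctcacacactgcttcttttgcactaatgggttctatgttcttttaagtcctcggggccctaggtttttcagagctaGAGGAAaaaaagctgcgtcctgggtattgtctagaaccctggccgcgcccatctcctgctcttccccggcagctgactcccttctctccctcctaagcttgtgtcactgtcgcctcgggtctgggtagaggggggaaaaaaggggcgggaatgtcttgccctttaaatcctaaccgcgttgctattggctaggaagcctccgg
Cybb, chrX:16065016-16065315, minus strand: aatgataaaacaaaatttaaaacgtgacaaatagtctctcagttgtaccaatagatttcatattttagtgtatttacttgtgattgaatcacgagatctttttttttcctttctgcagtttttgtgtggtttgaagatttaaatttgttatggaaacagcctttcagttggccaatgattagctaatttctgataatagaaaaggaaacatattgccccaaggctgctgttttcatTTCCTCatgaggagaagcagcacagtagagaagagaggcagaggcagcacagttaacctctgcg
Counted from the annotated start, the match in Sod2 lies at -35, on the strand opposite to the gene. The PU box lies at -14 in Cybb, on the opposite strand, and at -153 in Gpx3. Cat, not shown, held a PU box at -200. The Cyba window held neither. Of all 33469 promoter windows, 12.1% held the first motif and 27.6% the second. The motifs share no overlap in these windows, and a match describes letters only. DNA outside the windows was not searched, so a window without a match does not show that a gene, such as Nqo1, lacks the element.

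Levels are given as log2 of the quantile-normalised intensity plus 16, so that the lowest possible level is 4. A level belongs to its probe set and is not set against that of another. Each difference is on the log2 scale, subtracts the later-named group from the earlier and carries its standard error (SE) from limma. No member passed a Benjamini-Hochberg adjusted p of 0.05 in limma in any of the 10 comparisons (0 of 100 tests, the lowest adjusted p being 0.343 in limma). Without adjustment, 8 of the 100 had p under 0.05. The share of all 14217 genes that passed was itself small: 0.0844% in vehicle against baseline, 0.0141% in paricalcitol against vehicle, 0% in enalapril against vehicle and 0.00703% in the combination against vehicle. It was 0.0281%, 0.0141% and 0.162% for paricalcitol, enalapril and the combination against baseline, and 0% for the combination against either drug and for the interaction. Over all 5 groups 0.127% of genes passed limma's F-test and no member did. Without adjustment 10.5% of genes and 1 of 10 members had p under 0.05 in it. Its lowest p among the members was that of Hmox1 (unadjusted p = 0.0255, adjusted p = 0.40).

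These counts were set beside those of all genes. In vehicle against baseline 1 of 10 members had an unadjusted p under 0.05, beside 9.2% of all genes, and 3 of 10 had no overlap between groups, beside 7.77%. In paricalcitol against vehicle the counts were 2 (9.64% of genes) and 2 (5.04%), and in enalapril against vehicle 0 (5.64%) and 1 (8.53%). The combination gave 0 and 0 against vehicle (7.68% and 4.23% of genes), against enalapril (5.3% and 4.94%) and against paricalcitol (9.05% and 3.43%). Against baseline, paricalcitol gave 1 (7.76%) and 1 (3.71%), enalapril 1 (8.06%) and 2 (8.89%), and the combination 3 (10.3%) and 1 (5.58%). The interaction gave 0 of 10 (6.94%). The median difference of the 10 members lay between -0.09 and 0.02 over the 9 comparisons of group pairs.

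Gpx1, Sod1 and Cat, intracellular enzymes that remove superoxide or hydrogen peroxide, had group means that differed by at most 0.11 after quantile normalization. Gpx1, the main intracellular glutathione peroxidase, had group means from 13.49 to 13.52, and no array fell outside 13.29 to 13.66. Over the 9 comparisons of group pairs its 95% intervals reached from 0.881-fold to 1.13-fold. Gpx1 ranked between 52 and 114 of 31099 probe sets by brightness on the arrays, a range in which quantile normalization leaves little room for a difference. Sod1, the copper-zinc dismutase of the cytosol, had group means from 12.09 to 12.17, and its intervals reached from 0.816-fold to 1.23-fold. Cat, the peroxisomal catalase, had group means from 11.81 to 11.92, and its intervals reached from 0.820-fold to 1.21-fold. These limits depend on the scaling. With each array centred on its median instead, paricalcitol against vehicle was -0.20 for Gpx1, -0.20 for Sod1 and -0.24 for Cat, and vehicle against baseline was 0.19, 0.11 and 0.23, none past the adjusted threshold in limma. The main values of these were -0.04, -0.04 and -0.11, and 0.01, -0.01 and 0.10, and those of Gpx1 under median centring lie outside the limits given above.

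Sod2, the manganese dismutase of mitochondria, had its highest group mean with paricalcitol (11.48). Its levels were 11.39, 11.30, 11.19 and 11.16 at baseline and 11.28, 11.23, 11.23 and 11.28 in vehicle. With paricalcitol they were 11.52, 11.43, 11.40 and 11.58, with enalapril 11.79, 11.17 and 11.30, and in the combination 11.61, 11.46, 11.40 and 11.17. Every paricalcitol array lay above every vehicle array, while enalapril and the combination overlapped with vehicle. Paricalcitol against vehicle gave 0.23 (SE 0.11; adjusted p = 0.54 in limma), and 0.10 with arrays centred on their medians. The interaction of both drugs was -0.24 (SE 0.17), and -0.06 without enalapril replicate 1.

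Gpx3, the secreted glutathione peroxidase of plasma, went the other way. Its levels were 12.65, 12.40, 12.65 and 12.68 at baseline, 12.78, 12.77, 12.73 and 12.83 in vehicle, and 12.62, 12.59, 12.71 and 12.54 with paricalcitol. They were 12.77, 12.51 and 12.84 with enalapril and 12.53, 12.42, 12.59 and 12.89 in the combination. The vehicle arrays lay above all baseline and all paricalcitol arrays. Vehicle against baseline gave 0.18 (SE 0.09; adjusted p = 0.572 in limma), and paricalcitol against vehicle -0.16 (SE 0.09; adjusted p = 0.62). The first of these was 0.03 in the deposited values without equalisation between arrays and 0.12 without baseline replicate 2. With arrays centred on their medians they were 0.28 and -0.30. Sod2 and Gpx3 were the 2 of 10 members whose paricalcitol and vehicle arrays did not overlap, as against 5.04% of all genes.

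**Figure D1:**
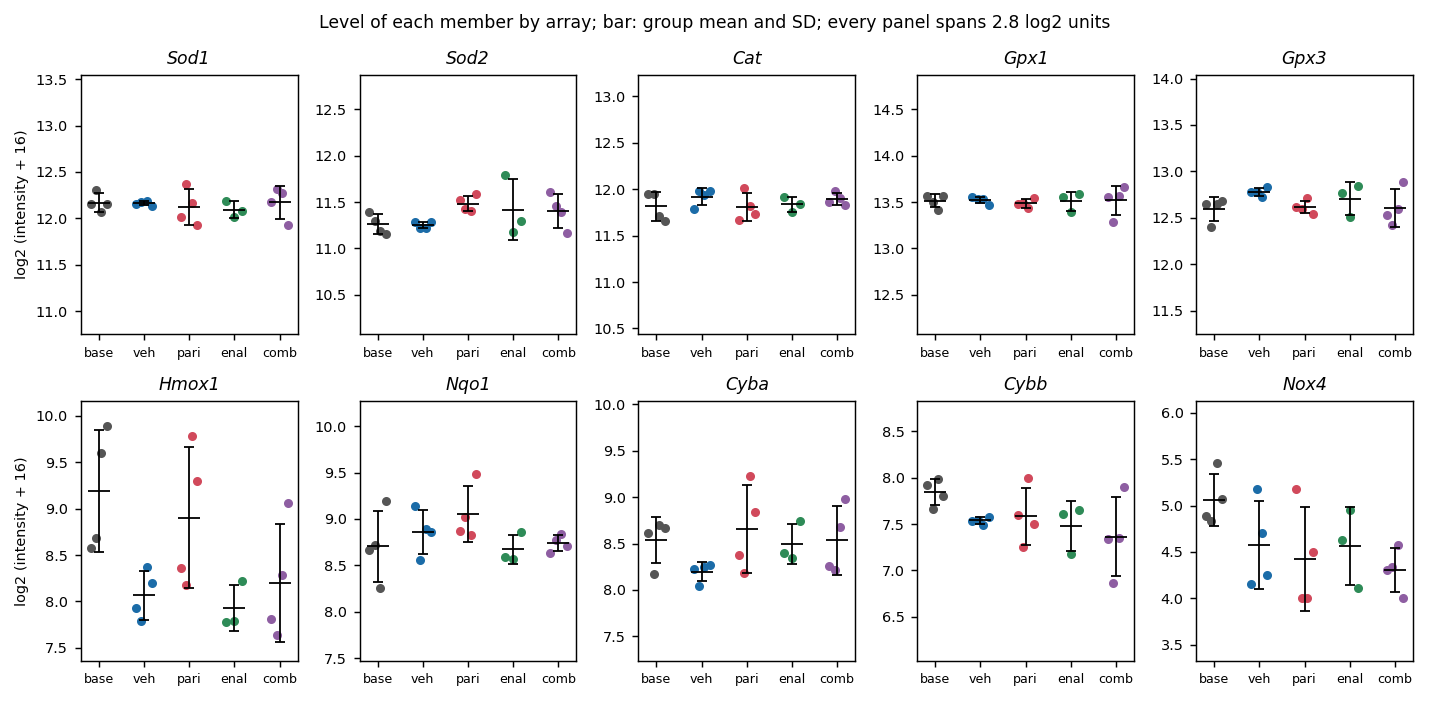
Level of each of the 10 genes on each array, as log2 of normalised intensity plus 16, by group (base, baseline; veh, vehicle; pari, paricalcitol; enal, enalapril; comb, combination). Points are arrays, and the bars give the group mean and SD (n = 4, and 3 for enalapril). The upper row is tight, whereas Hmox1 spans 7.63 to 9.89.

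Hmox1, the inducible haem oxygenase that breaks haem down to biliverdin, iron and carbon monoxide, varied most. Its SD within groups was 0.57, larger than that of 92.9% of genes. Levels were 8.58, 8.68, 9.60 and 9.89 at baseline and 7.93, 7.78, 8.37 and 8.19 in vehicle. With paricalcitol they were 8.36, 8.17, 9.78 and 9.30, with enalapril 7.78, 7.79 and 8.22, and in the combination 7.82, 7.63, 8.28 and 9.06. All baseline arrays lay above all vehicle and all enalapril arrays. The paricalcitol group spread from 8.17 to 9.78, where all arrays together ran from 7.63 to 9.89. Of its arrays, 2 lay within the vehicle range and 2 within the baseline range. Group means ran in the order baseline 9.19 ± 0.66 (SD, n = 4), paricalcitol 8.90 ± 0.76 (SD, n = 4), combination 8.20 ± 0.64 (SD, n = 4), vehicle 8.07 ± 0.26 (SD, n = 4) and enalapril 7.93 ± 0.25 (SD, n = 3). Neighbours in that order differed by less than the larger of their SDs. The widest step, the combination against paricalcitol, was -0.71 (SE 0.39; adjusted p = 0.637 in limma), and -0.41 without paricalcitol replicate 3.

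Hmox1 was lower in vehicle than at baseline by a difference of -1.12 (SE 0.39), or 0.461-fold, with an unadjusted p = 0.0119 and adjusted p = 0.353 in limma. Enalapril against baseline gave -1.26 (SE 0.42; adjusted p = 0.44) and the combination against baseline -0.99 (SE 0.39; adjusted p = 0.387). Paricalcitol against vehicle gave 0.83 (SE 0.39; adjusted p = 0.517), and without paricalcitol replicate 3 it was 0.54. The comparisons with baseline share the baseline arrays. Of 15 macrophage markers, 14 had lower means in vehicle than in baseline rats (median -0.23, against 0 over all genes), and none passed. Markers of several other cell types leaned the same way there: 8 of 8 red cell markers were lower (median -0.27), 9 of 10 fibroblast (median -0.25), 9 of 12 smooth muscle and pericyte (median -0.22) and 8 of 10 endothelial (median -0.12). Of 9 adipocyte markers, 5 were lower and 2 higher (median -0.23). Granulocyte markers leaned the other way, with 5 of 7 higher (median 0.10). Cardiomyocyte markers were split, with 6 of 11 higher and 5 lower (median 0.01). None of these markers passed the threshold. In other comparisons the macrophage markers and Hmox1 did not always lean alike. With enalapril against baseline 12 of 15 markers were higher (median 0.07), while Hmox1 was -1.26. With enalapril against vehicle 14 of 15 were higher (median 0.33), while Hmox1 was -0.14. In paricalcitol against vehicle 14 of 15 were higher (median 0.18), and Hmox1 was 0.83. In the combination against baseline 12 of 15 were lower (median -0.10), and Hmox1 was -0.99. The part of the markers in the Hmox1 differences was not tested, apart from the covariates given below. The macrophage score, the mean log2 level of the 15 genes after centring each on its mean, ran from -0.21 to 0.40 at baseline and from -0.33 to -0.02 in vehicle. It ran from -0.64 to 0.45 with paricalcitol, from -0.11 to 0.36 with enalapril and from -0.57 to 0.48 in the combination. Itgam, a macrophage integrin, was at or below 0 on all vehicle arrays, and no other macrophage marker was so on all arrays of a group. Of the red cell markers, Rhag was so on all vehicle and all enalapril arrays. With the macrophage score as a covariate the Hmox1 difference of vehicle from baseline was -0.79 (with the red cell score, -1.08), and that of paricalcitol from vehicle was 0.57. That of the combination was -0.82 from baseline (main value -0.99), -0.59 from paricalcitol (-0.71) and 0.49 from enalapril (0.27). In bulk tissue, fewer cells of a type and less RNA per cell cannot be told apart.

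Nqo1, a quinone reductase and classical Nrf2 target, had levels of 8.66, 8.72, 8.26 and 9.19 at baseline and 9.14, 8.56, 8.89 and 8.85 in vehicle. With paricalcitol they were 8.87, 9.02, 8.82 and 9.49, with enalapril 8.59, 8.57 and 8.85, and in the combination 8.64, 8.77, 8.84 and 8.71. The highest array of baseline exceeded 3 of the 4 paricalcitol arrays, and all groups overlapped. Among the comparisons made, which do not include paricalcitol against enalapril, its widest differences were 0.34 (SE 0.18; adjusted p = 0.691 in limma) for paricalcitol against baseline and -0.31 (SE 0.18; adjusted p = 0.643) for the combination against paricalcitol. They were 0.19 without baseline replicate 3 and -0.16 without paricalcitol replicate 4. In vehicle against baseline Nqo1 gave 0.15, which turned to -0.08 in the deposited values, so no direction is given.

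**Figure D2:**
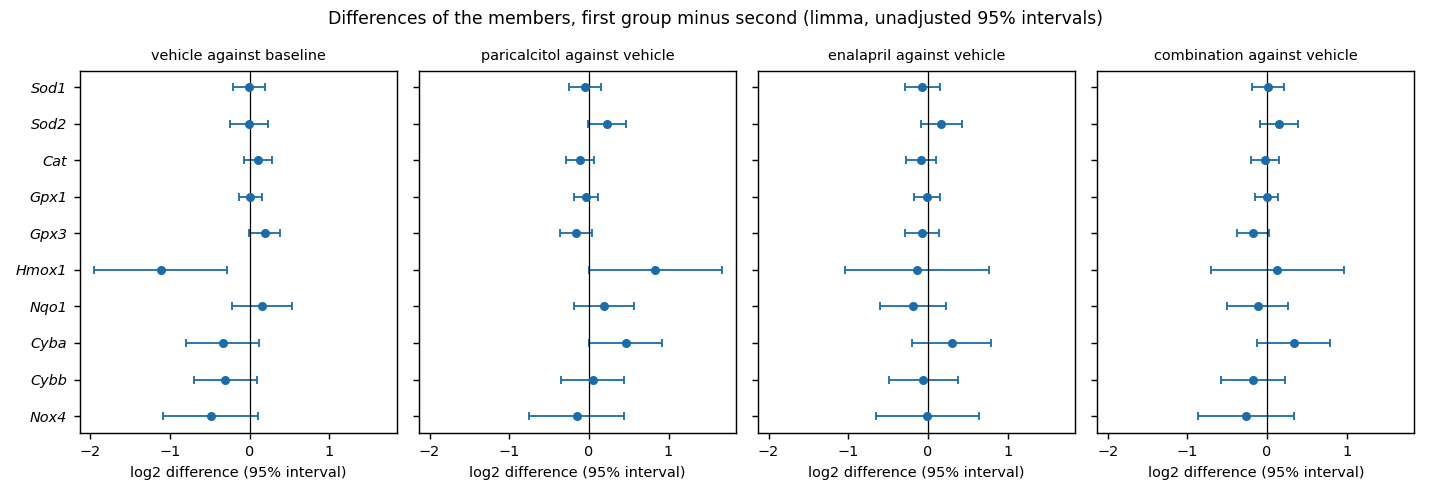
Log2 differences of the 10 genes in 4 comparisons, first group minus second, with limma's unadjusted 95% intervals. Intervals are narrow for Sod1, Sod2, Cat, Gpx1 and Gpx3 and wide for Hmox1, and that of Hmox1 in vehicle against baseline (difference -1.12) lies farthest from 0.

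Cyba encodes the small membrane subunit that several NADPH oxidases need. Its brighter probe set had levels of 8.61, 8.17, 8.70 and 8.66 at baseline, 8.22, 8.04, 8.25 and 8.27 in vehicle, and 8.38, 8.18, 9.23 and 8.84 with paricalcitol. They were 8.39, 8.35 and 8.75 with enalapril and 8.25, 8.21, 8.68 and 8.98 in the combination. Vehicle was the lowest group, and the enalapril arrays lay wholly above it, whereas the other groups overlapped with it. Paricalcitol against vehicle gave 0.46 (SE 0.22; adjusted p = 0.517 in limma), and 0.27 without paricalcitol replicate 3. The dimmer Cyba probe set had the opposite sign in 8 of 10 comparisons. With both averaged, vehicle against baseline turned from -0.34 to 0.21, so no direction is given for Cyba.

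Cybb encodes the catalytic subunit of the phagocyte oxidase. Its brighter probe set had levels of 7.92, 7.66, 7.99 and 7.80 at baseline and 7.54, 7.55, 7.49 and 7.57 in vehicle. With paricalcitol they were 7.60, 7.25, 7.99 and 7.50, with enalapril 7.61, 7.17 and 7.65, and in the combination 7.34, 6.86, 7.35 and 7.90. All vehicle and all enalapril arrays lay below all baseline arrays. The combination against baseline gave -0.48 (SE 0.19; unadjusted p = 0.0213, adjusted p = 0.375 in limma), and vehicle against baseline -0.31 (SE 0.19; adjusted p = 0.679). Without combination replicate 2 the first was -0.32. The dimmer probe set gave -0.07 (SE 0.23) and 0.12 (SE 0.23) for these. Hmox1, Gpx3 and Cybb were the 3 of 10 members without overlap between vehicle and baseline, as against 7.77% of all genes. For Cybb this holds for the brighter probe set only. The dimmer one overlapped, from 5.75 to 6.25 at baseline and from 5.98 to 6.33 in vehicle.

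Nox4, an oxidase of heart and vessel cells that yields mainly hydrogen peroxide, lay close to the lowest level the scale allows. It was 4.89, 4.83, 5.46 and 5.07 at baseline and 4.16, 5.18, 4.71 and 4.25 in vehicle. With paricalcitol it was 5.18, 4.00, 4.00 and 4.50, with enalapril 4.63, 4.95 and 4.11, and in the combination 4.31, 4.34, 4.58 and 4.00. Its deposited value was at or below 0 on 3 arrays, 2 of paricalcitol and 1 of the combination. All combination arrays lay below all baseline arrays (5.58% of genes did not overlap there). That difference was -0.76 (SE 0.28; unadjusted p = 0.0167, adjusted p = 0.343 in limma), and it ran from -1.51 with a pseudocount of 4 to -0.27 with 64, so its size is not settled.

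Some members deviated together between rats of a group, but the test depends on how arrays are taken to be paired. Each array's deviation from its group mean was compared between members over the 45 pairs, with permutation tests that shuffled arrays within groups (two-sided) and adjustment over the 45 pairs. Cyba and Cybb entered these and all later correlations with their brighter probe sets only. Their dimmer probe sets, which often differed in sign between groups, were not tested in the correlations. Same-numbered arrays of the paricalcitol and combination groups were alike over all genes, so these arrays may not be independent. When they were shuffled together by number, Sod1 with Cat missed the threshold (adjusted p = 0.0714 by permutation) and the other 4 pairs named here passed (each adjusted p = 0.0112). When arrays were shuffled freely but replicate number was removed as a block, none of the 5 pairs passed by permutation: r was 0.69 for Hmox1 with Cyba, 0.77 for Gpx3 with Cybb and 0.68 for Cyba with Cybb (each adjusted p = 0.198), 0.59 for Sod1 with Cat (adjusted p = 0.24) and 0.45 for Gpx3 with Cyba (adjusted p = 0.392). The values that follow are without this block. Hmox1 and Cyba were closest (Pearson r = 0.89, permutation p = 1e-04, adjusted p = 0.0045; Spearman rho = 0.86, permutation p = 0.00032, adjusted p = 0.0103; 19 arrays). Without the 2 arrays farthest in Hmox1, r was 0.82. It was 0.99 over the 8 arrays with paricalcitol, alone or combined, and 0.67 over the other 11. Of 7108 brighter genes, 0.0141% followed Hmox1 as closely. Gpx3 and Cybb came next (r = 0.86, permutation p = 0.00073, adjusted p = 0.0164; rho = 0.86, permutation p = 0.00046, adjusted p = 0.0103), with r = 0.77 without the 2 farthest arrays and 0.90 in either part of the arrays. None of the other brighter genes followed Gpx3 as closely as Cybb did (0%). This pair missed the threshold in 4 of 19 omissions of an array: baseline replicate 2, paricalcitol replicate 3, and combination replicates 2 and 4 (r from 0.77, highest adjusted p = 0.0643).

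Cyba and Cybb, whose products form the phagocyte oxidase together, had r = 0.79 (permutation p = 0.00199, adjusted p = 0.0216) and rho = 0.66 (permutation p = 0.0185, adjusted p = 0.167), and r = 0.70 without the 2 farthest arrays. Gpx3 and Cyba had r = 0.69 (permutation p = 0.0024, adjusted p = 0.0216) and rho = 0.66 (permutation p = 0.00916, adjusted p = 0.111), and r = 0.64 without the 2 farthest. Sod1 and Cat, both enzymes of most cells, had r = 0.70 (permutation p = 0.00201, adjusted p = 0.0216) and rho = 0.64 (permutation p = 0.00983, adjusted p = 0.111), and r = 0.63 without the 2 farthest. That is less particular, since 5.59% of brighter genes followed Sod1 as closely as Cat did. Omitting 1 array ended the Pearson call of Cyba with Cybb in 5 of 19 cases, of Gpx3 with Cyba in 6 and of Sod1 with Cat in 5. The values of a pair come from the same arrays, so whatever an array carries is shared.

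The same deviations were compared with marker scores of 8 cell types over 80 relations. Hmox1 followed the macrophage score (r = 0.83, permutation p = 0.00186, adjusted p = 0.0372; rho = 0.85, permutation p = 0.00179, adjusted p = 0.0286; 0.77 without the 2 farthest arrays). Cyba also did (r = 0.79, permutation p = 0.00328, adjusted p = 0.0439; rho = 0.80, permutation p = 0.00109, adjusted p = 0.0286; 0.68 without 2 arrays). Cybb followed the fibroblast score (r = 0.87, permutation p = 6e-05, adjusted p = 0.0048; rho = 0.92, permutation p = 4e-05, adjusted p = 0.0032; 0.82 without 2 arrays) and, less firmly, the macrophage score (r = 0.79, permutation p = 0.00329, adjusted p = 0.0439; rho = 0.63, permutation p = 0.0192, adjusted p = 0.165; 0.70 without 2 arrays). Gpx3 followed the fibroblast score (r = 0.71, permutation p = 0.00023, adjusted p = 0.0092; rho = 0.76, permutation p = 0.00071, adjusted p = 0.0284; 0.70 without 2 arrays). Cat followed the cardiomyocyte score (r = 0.76, permutation p = 0.00097, adjusted p = 0.0259; rho = 0.73, permutation p = 0.00168, adjusted p = 0.0286; 0.71 without 2 arrays). Among all brighter genes, 0.901% followed the macrophage score as closely as Hmox1, 1.53% as closely as Cyba and 1.44% as closely as Cybb. The fibroblast score was followed by 0.0281% as closely as by Cybb and by 0.76% as closely as by Gpx3. For the cardiomyocyte score and Cat the share was 0.929%. The fibroblast score lay between 0.11 and 0.41 at baseline and between -0.29 and 0.04 in vehicle. The brighter Cybb probe set was also lower in vehicle (-0.31, SE 0.19), but the dimmer one was not (0.12, SE 0.23). Neither passed the threshold. With replicate number as a block, only Cybb with the fibroblast score passed of these 6 relations by Pearson (r = 0.84, permutation p = 0.00042, adjusted p = 0.0336), and none did by Spearman. Hmox1 with the macrophage score then had r = 0.78 (permutation p = 0.00185, adjusted p = 0.074). All 6 passed by Pearson when paricalcitol and combination arrays were shuffled together. The part of cell makeup in these differences was not tested.

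**Figure D3:**
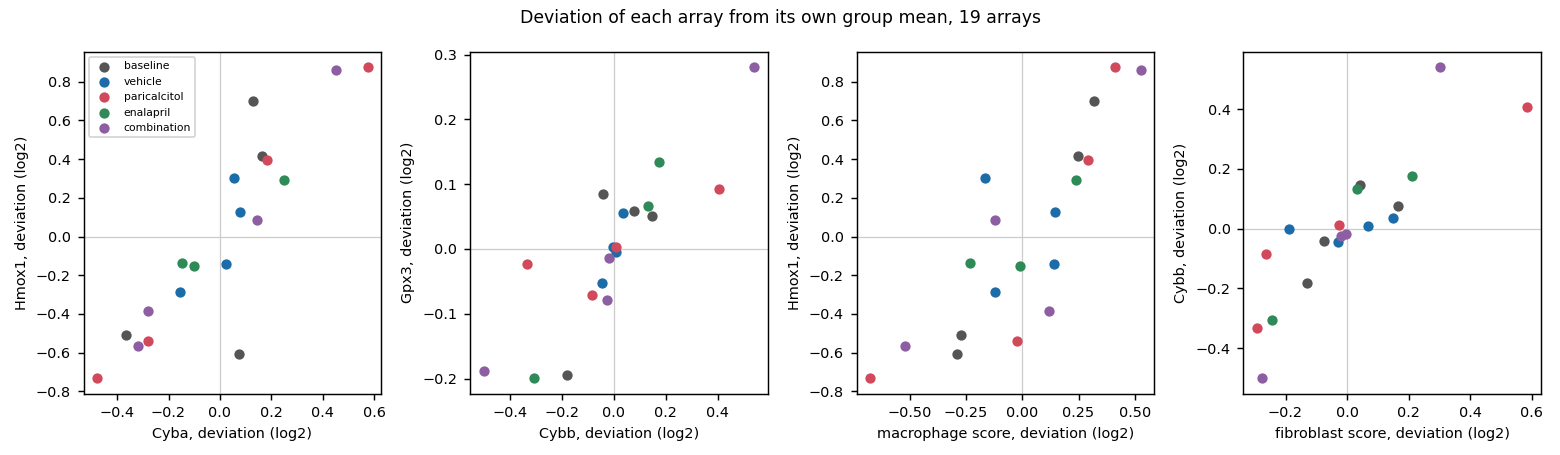
Deviation of each of the 19 arrays from its own group mean, in log2 units: Hmox1 against Cyba, Gpx3 against Cybb, Hmox1 against the macrophage marker score, and Cybb against the fibroblast marker score. Colours mark groups. Points rise from lower left to upper right (Pearson r = 0.89, 0.86, 0.83 and 0.87), and the vehicle arrays lie near the centre.

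Over levels on all 19 arrays, without regard to group, the brighter genes most like each member were ranked by Pearson r, which is given as a description. For Cyba they were Tmem176b (0.93), Lcp1, the leukocyte plastin (0.89), and Glipr1 (0.85). For Cybb they were Fn1, fibronectin (0.89), Man2a1 (0.87) and Col5a2, a fibrillar collagen (0.87). Hmox1 was closest to Rpn2 (0.85), Cd300c2 (0.85) and Mmp2, a matrix metalloproteinase (0.84). Gpx3 was closest to Serping1, the inhibitor of complement C1 (0.81), Vrk3 (0.76) and Vps35l (0.74). Cat was closest to Triap1 (0.91), Rcan2 (0.86) and LOC100911864 (0.86), and Sod1 to Smdt1, part of the mitochondrial calcium uniporter (0.89), Atg13 (0.87) and Tmem256 (0.87). For Sod2 they were Rgp1 (0.77), Ehbp1l1 (0.74) and Hcfc1 (0.72), and for Gpx1 Grn (0.72), Map3k1 (0.70) and Mindy3 (0.70). Nqo1 was closest to Kcnj5 (0.79), Aff1 (0.77) and Dgcr8 (0.76), and Nox4 to Abi2 (0.78), Xpo4 (0.73) and Ppp2cb (0.67).

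Of 87 other redox genes in 6 lists, 77 were measured and none passed adjusted p = 0.05 in limma in any comparison. Without adjustment, p was under 0.05 for 13 of 77 in vehicle against baseline (9.2% of all genes) and for 8 of 77 in paricalcitol against vehicle (9.64%). In the other 8 comparisons between 3 and 8 of the 77 had one, beside 5.3% to 10.3% of all genes. The glutathione system had 10 of 21 members higher and 11 lower in vehicle against baseline (median 0.00), and the peroxiredoxins and thioredoxins 8 of 16 in each direction (median -0.01). Enalapril against vehicle had the most one-sided split, with 51 of the 77 lower (median -0.07, against 0 over all genes). In that comparison the glutathione system had 6 of 21 higher and 15 lower (median -0.09), and the Nrf2 pathway 8 of 19 higher and 11 lower. The remaining oxidase subunits had 1 of 9 higher and 8 lower, and other oxidant sources 3 of 10 higher and 7 lower. Peroxiredoxins and thioredoxins had 8 of 16 in each direction, and other dismutase, haem and iron genes 3 of 7 higher and 4 lower.

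The genes named next had the smallest F-test p of their list. Pxdn, a peroxidase of the extracellular matrix, was 10.31 ± 0.19 (SD, n = 4) at baseline and 9.57 ± 0.18 (SD, n = 4) in vehicle, without overlap. That difference was -0.73 (SE 0.14; adjusted p = 0.0597 in limma), and the combination against baseline gave -0.69 (SE 0.14; adjusted p = 0.0588). Maoa, the monoamine oxidase of the mitochondrial outer membrane, which releases hydrogen peroxide, was 12.79 ± 0.24 (SD, n = 4) at baseline, 13.47 ± 0.14 (SD, n = 4) in vehicle and 12.69 ± 0.14 (SD, n = 4) with paricalcitol. The vehicle arrays (13.30 to 13.60) lay above all arrays of every other group, enalapril and the combination included. Vehicle against baseline gave 0.68 (SE 0.16; adjusted p = 0.132) and paricalcitol against vehicle -0.78 (SE 0.16; adjusted p = 0.0805). With enalapril Maoa was 13.08 ± 0.23 (SD, n = 3) and in the combination 12.97 ± 0.34 (SD, n = 4). Against vehicle, enalapril gave -0.40 (SE 0.17, adjusted p = 0.852 in limma) and the combination -0.50 (SE 0.16, adjusted p = 0.483). Gpx4, the peroxidase of membrane lipid peroxides, was 12.64 ± 0.04 (SD, n = 4) at baseline and 12.85 ± 0.05 (SD, n = 4) in vehicle, a difference of 0.21 (SE 0.04; adjusted p = 0.0649).

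Txnrd3, a thioredoxin reductase, was 8.15 at baseline and with paricalcitol, 8.42 in vehicle, 8.29 with enalapril and 8.41 in the combination. Its interaction of both drugs was 0.39 (SE 0.11; adjusted p = 0.429 in limma). Gpx7, a peroxidase of the endoplasmic reticulum, was lower in vehicle than at baseline by -0.43 (SE 0.11; adjusted p = 0.182). Abcc1, an exporter of glutathione conjugates, had -0.63 (SE 0.14; adjusted p = 0.237) in the combination against vehicle. Keap1, the inhibitor of Nrf2, had 0.31 (SE 0.09; adjusted p = 0.831) in the combination against enalapril. Rac2, a GTPase that activates the phagocyte oxidase, had -1.02 (SE 0.33; adjusted p = 0.305) in paricalcitol against vehicle. Its levels overlapped there, from 7.76 to 9.16 with paricalcitol and from 9.11 to 9.46 in vehicle. Poldip2, a partner of Nox4, had 0.29 (SE 0.08; adjusted p = 0.239) in vehicle against baseline. Each difference given in this paragraph is the widest of that gene's 10 comparisons. Prdx6, Sod3 and Hmox2, also named by the rule, had F-test adjusted p = 0.525, 0.731 and 0.784.

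**Figure D4:**
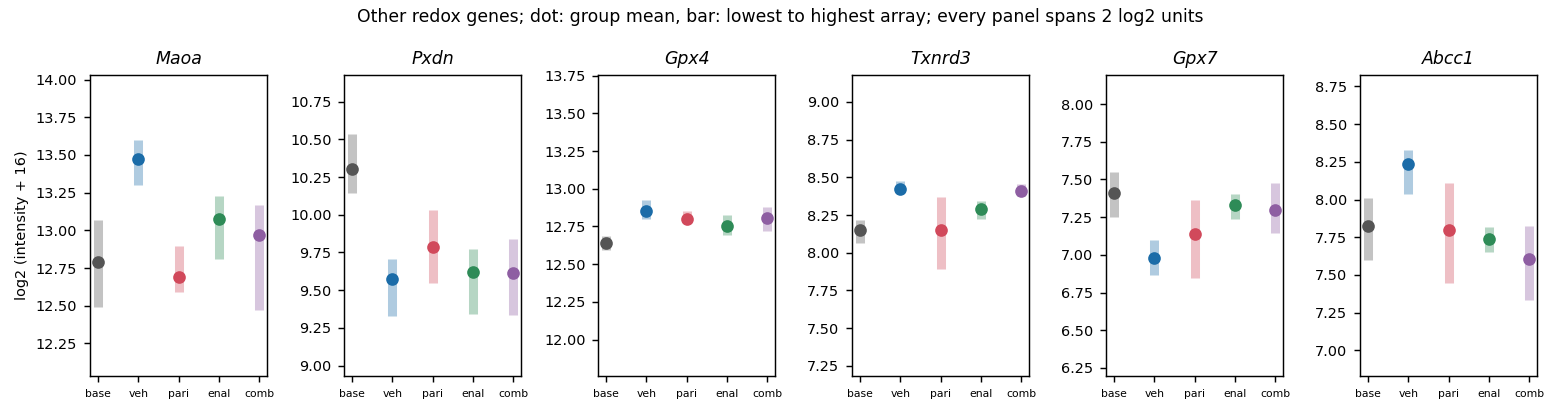
Levels of 6 other redox genes by group, as log2 of normalised intensity plus 16. Dots are group means and bars run from the lowest to the highest array (n = 4, and 3 for enalapril). Maoa is highest in vehicle (13.47) and Pxdn highest at baseline (10.31).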

How the data were processed

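RNA of 19 left ventricles was hybridised to 1 Affymetrix array each. Each array was deposited as a linear intensity for every probe set. How background was subtracted and arrays were scaled is not given in the sources used here. Array medians ran from 43.6 to 72.6, and 16% to 18.2% of values were below 0. Depth has no count here; the number of arrays limits the precision.

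Arrays were quantile normalised together, negative values raised to 0, and log2 taken after adding 16. GEO's platform annotation, with symbols updated through RefSeq for 20758 of 20826 one-gene probe sets, gave 14217 genes, each taken from whichever of its probe sets was brightest on average. Probe sets naming several genes (436) or none (9780), and 57 control probe sets, were left out. limma 3.58.1 (R 4.3.3) estimated the 5 group means in 1 model, with a variance trend. On simulated data, 90.2% of genes shifted by 1 and 47.8% of those shifted by 0.5 were found in vehicle against baseline (14217 genes), with 6.57% of calls false. Shifted genes were drawn from those brighter than the median. Many genes were shifted at once, with independent normal noise, which eases the adjusted threshold, whereas 12 genes passed in the data. These shares are therefore not the power of the tests of the members.

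Nothing in the labels pairs rats across groups. The p-values of limma rest on the spread between rats within groups, pooled over the 5 groups and moderated by the variance trend. Groups of unlike spread, as for Hmox1, therefore share 1 estimate. Those of the correlations come from permutation. Same-numbered arrays deviated together (correlation over 0.1 for every number) for paricalcitol with the combination, 1 of the 10 group pairs, so a replicate block was run as an alternative, for the correlations too. The members, gene lists and processing were chosen with earlier results of these data known. All 10 members are named; of the other redox lists, genes past the threshold and the 2 per list with the smallest F-test p; and the 3 brighter genes (mean above the median) most like each member. The PU box and the alternatives for correlations were chosen after seeing the data.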

Additional observations from a re-analysis of the deposited data

Results flagged for a closer look

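In the 48 sets of 4 arrays examined, 3 values stood far from the rest of their group by Dixon's ratio, and chance gives about 1 in 20. Gpx3 was 12.40 on baseline replicate 2 against 12.65 to 12.68 on the others. The brighter Cyba probe set was 8.17 on the same array against 8.61 to 8.70. The dimmer Cyba probe set was 6.82 on paricalcitol replicate 4 against 5.63 to 5.82. Cat lay below the vehicle mean on all 3 enalapril arrays, while all 4 combination arrays lay above the paricalcitol mean. The interaction was 0.17 (SE 0.12; adjusted p = 0.822 in limma), so this difference did not pass.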

How the results depend on the processing

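No member passed the threshold in any of the 10 comparisons or the F-test under any of the 13 alternatives or the 19 omissions of 1 array (range 0 to 0 members; smallest adjusted p = 0.0724, for Hmox1 in vehicle against baseline). With the replicate block 0 members were called in every comparison; over all genes it raised the count in paricalcitol against vehicle from 2 to 14, in vehicle against baseline from 12 to 19, in paricalcitol against baseline from 4 to 7, in the combination against vehicle from 1 to 2, and in the combination against paricalcitol and the interaction from 0 to 1. It lowered the count in enalapril against baseline from 2 to 0 and in the F-test from 18 to 14. Of 2130 recomputed differences, 167 changed sign, none of them among differences with an unadjusted p under 0.05, and 73 moved by more than 1 SE. Hmox1 in vehicle against baseline ran from -1.36 in the deposited values to -0.79 with the macrophage score as a covariate, and from -1.32 to -0.88 over omissions; the cause was not tested. Averaging probe sets took Cybb in vehicle against baseline to -0.09. The correlation of Hmox1 and the brighter Cyba probe set kept its call under 5 other scalings and pseudocounts (0.88 to 0.90) and all 19 omissions (0.85 to 0.97), and lost it with a replicate block (0.69). That of Sod1 and Cat lost its call after median centring (r = 0.68, adjusted p = 0.0505). The few arrays per group limit what could be seen for Hmox1 and Nox4, whose SE was 0.39 and 0.28.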
